A study of Mus musculus with 4 samples.

Results

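The insulin-like growth factor (IGF) axis was described through 10 genes, chosen by name as the growth factors, their receptors and their binding proteins. All 10 had a row among the 17230 rows of the count table, and 9 passed the low-count filter. RNA was sequenced in bulk from stromal cells sorted from mouse femurs at postnatal day 21, after tamoxifen at embryonic day 12.5. All animals carried a GFP allele and a normal allele of Cxcl12, so that GFP marks CXCL12-abundant reticular (CAR) cells, and a tdTomato reporter at R26R that Cre switches on for good. The Hes1-derived group (genotype Cxcl12(GFP/+); Hes1(CreER/+); R26R(tdTomato/+)) comprised replicates 1 and 3, and the Fgfr3-derived group (Cxcl12(GFP/+); Fgfr3-iCreER; R26R(tdTomato/+)) had replicates 2 and 3. By the series title, these 2 lineages stand for fetal perichondrium and chondrocytes as sources of CAR cells. Lineage and Cre line cannot be told apart. Whether each library is 1 animal or a pool is not stated in the labels, so the p-values measure only the spread between these libraries, which may be technical. Values below are given for Hes1-derived replicates 1 and 3 first and for Fgfr3-derived replicates 2 and 3 second, in this order.

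The Hes1-derived libraries held 22745128 and 23625327 reads, and the Fgfr3-derived libraries 26025607 and 26804832 reads. All 22 genes of a reticular stroma list had reads in every library, as the label CAR cell implies, but genes of other cells were present too. The summed level of 10 pan-leukocyte genes was 6106 and 7196 CPM (counts scaled to library size, with TMM factors) in the Hes1-derived libraries and 1766 and 3807 CPM in the Fgfr3-derived libraries, and 6 of the 10 were higher and none was lower in the Hes1-derived group. All 10 B lymphocyte genes were higher in that group, with summed levels of 2341 and 2146 CPM against 320.1 and 566 CPM. Of 7 erythroid genes 6 were higher, with summed levels of 7646 and 4183 CPM against 1122 and 1688 CPM. Osteoblast genes differed the other way, with 7 of 10 lower and summed levels of 4812 and 4820 CPM against 27340.4 and 30961 CPM. No marker of these 4 lists was at 0 in any library. The summed level of 7 neutrophil genes was 24602 and 28962 CPM against 8175 and 20158 CPM. In the Hes1-derived libraries this exceeded the summed reticular stroma list (20510 and 13520 CPM). For 6 chondrocyte genes it was 599 and 2098 CPM against 3441 and 484 CPM. No gene of these neutrophil and chondrocyte lists was called. In bulk RNA, fewer cells of a type and less RNA per cell cannot be told apart. Xist stood at 0.15 CPM in Fgfr3-derived replicate 3 and at 50.5 to 55.4 CPM in the other 3 libraries. The Y-linked gene Ddx3y had 22.4 and 50.7 CPM in the Hes1-derived and 93.7 and 87.9 CPM in the Fgfr3-derived libraries. The other 3 libraries thus held Xist and Y-linked reads together. Of 5 sex-linked genes, 4 did not overlap between the groups, against 61.9% of all tested genes, and none was called. The labels do not give the sex of the animals or say whether both sexes were pooled. The part of sex in the differences between the groups was not tested.

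IGF1 and IGF2 are secreted growth factors that act through IGF1R, a receptor tyrosine kinase. IGF2R, the mannose 6-phosphate receptor, takes up IGF2 for degradation. IGF binding proteins (IGFBPs) hold the factors in the tissue or the circulation and set how much reaches the receptor, and proteases free the factors by cutting the binding proteins. In bone the axis is known for its part in growth and in osteoblast function, and the matrix stores IGFs bound to IGFBPs.

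The start regions of Igfbp2 and Igfbp4 are shown because these genes had the largest differences between the groups among the tested members, in opposite directions, although only Igfbp2 passed the test. Each window holds 250 bases before and 50 after a RefSeq start (build GRCm38.p6, plus strand), chr1:72824230-72824529 for Igfbp2 and chr11:99040994-99041293 for Igfbp4. For Igfbp2, which has 2 windows in RefSeq, the window nearest to the GENCODE gene start is printed. Capitals mark GGGCGG (the GC box) and TATAAA, searched on both strands.
Igfbp2: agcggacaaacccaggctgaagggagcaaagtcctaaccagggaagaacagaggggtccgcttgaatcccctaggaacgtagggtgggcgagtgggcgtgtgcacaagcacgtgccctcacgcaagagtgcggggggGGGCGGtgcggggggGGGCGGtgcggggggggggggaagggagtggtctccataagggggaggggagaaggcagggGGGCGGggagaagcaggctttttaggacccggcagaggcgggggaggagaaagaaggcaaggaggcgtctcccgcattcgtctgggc
Igfbp4: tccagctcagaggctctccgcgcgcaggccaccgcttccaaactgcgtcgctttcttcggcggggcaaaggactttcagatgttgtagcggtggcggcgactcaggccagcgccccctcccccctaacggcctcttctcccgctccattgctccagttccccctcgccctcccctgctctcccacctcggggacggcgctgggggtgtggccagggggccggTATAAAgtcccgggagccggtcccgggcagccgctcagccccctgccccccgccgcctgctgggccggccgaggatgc
The Igfbp2 window has 3 GC box matches, no TATAAA and 67.0% G and C. The Igfbp4 window has 1 TATAAA match, no GC box and 71.3% G and C. Of 32851 mouse promoter windows of the same length, 35.7% hold at least 1 GC box and 13.6% at least 1 TATAAA, so that neither kind of match is rare. The share with 3 GC boxes was not computed. The Igfbp2 window also has 1 CACGTG (the E-box), not marked, which 7.15% of windows hold. The median G and C content of these windows was 52.7%. The matches describe the letters and are not evidence of factor binding.

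Igfbp2 was the only member that passed the test between the lineages, and it was higher in the Hes1-derived libraries. Over 14330 genes, with edgeR's quasi-likelihood F test and p-values adjusted after Benjamini and Hochberg, 1 of 9 tested members was higher and none was lower. Of all tested genes, 11.8% were called, 5.24% as higher and 6.56% as lower, so 1 call in 9 is near the background. No member was lower at an unadjusted p under 0.05 in edgeR. DESeq2 called 1 lower, Igfbp4, and limma-voom called none, with 1 lower at an unadjusted p under 0.05. Over all tested genes DESeq2 called 20.8% in either direction. An unadjusted p under 0.05 was reached by 4307 of 14330 genes in edgeR and 4473 in limma-voom. The median log2 fold change (Hes1-derived minus Fgfr3-derived) of the 9 members was 0.08, against −0.02 over all tested genes. For 3 of the 9 members the groups did not overlap, compared with 61.9% of all tested genes.

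**Figure D1:**
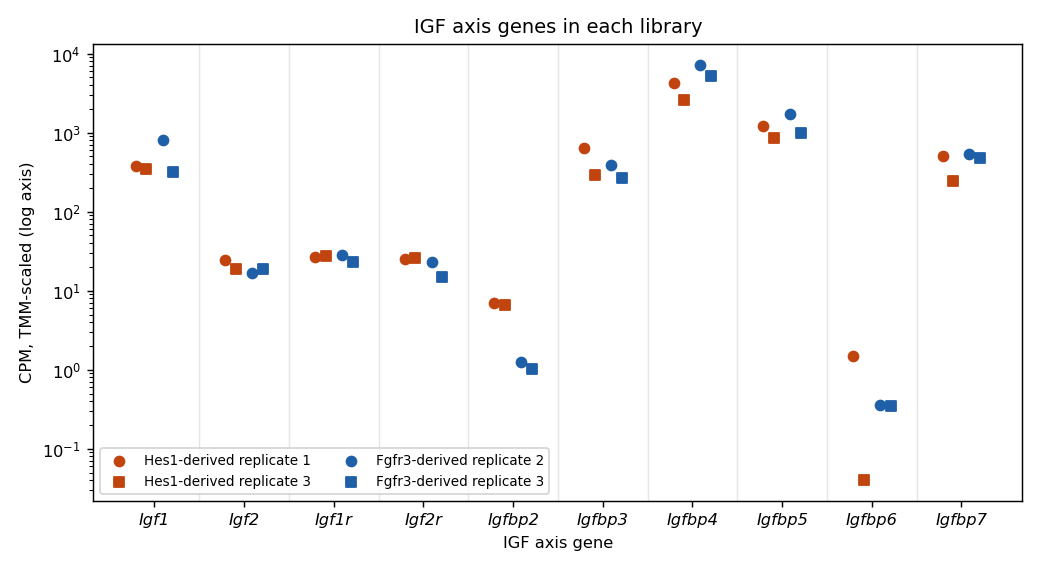
Level of each of the 10 IGF axis genes in CPM (log axis), a point per library, with Hes1-derived libraries in red and Fgfr3-derived libraries in blue. The Igfbp2 points of the 2 groups lie apart, at 6.65 to 6.99 against 1.03 to 1.26 CPM, while those of most other genes mix.

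Of the ligands, Igf1 (chr10:87858265-87937042, plus strand, GENCODE M21 on GRCm38) was uneven between libraries. It stood at 382 and 345 CPM in the Hes1-derived libraries against 809 and 318 CPM in the Fgfr3-derived ones. Fgfr3-derived replicate 2 was thus well above the other 3 libraries, the Fgfr3-derived libraries differed 2.55-fold from each other, and the groups overlapped. The log2 fold change was −0.63 ± 0.41 (SE; edgeR adjusted p = 0.36). Without Fgfr3-derived replicate 2 it turned to 0.21 (edgeR adjusted p = 0.70), and without Fgfr3-derived replicate 3 it was −1.11 and passed (edgeR adjusted p = 0.036). The same replicate also had the highest levels of the stromal genes Lepr, the leptin receptor (1359 CPM, against 530.0 to 691 in the other 3), and Kitl, stem cell factor (592 CPM, against 195 to 293). Of the reticular stroma list, Foxc1, Csf1, Gas6, Hp, Bmp4, Il34, Esm1 and Chrdl1 were not highest in this replicate. The summed level of 6 chondrocyte genes was highest in it, at 3441 CPM against 484 to 2098 CPM in the other 3. The part of these genes in the Igf1 values was not tested.

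Igf2, a growth factor that is mainly fetal in mouse, was much lower than Igf1. It stood at 24.3 and 18.6 CPM in the Hes1-derived and 16.7 and 18.8 CPM in the Fgfr3-derived libraries, with overlapping groups and a log2 fold change of 0.27 ± 0.27 (edgeR adjusted p = 0.55). Per length, Igf1 exceeded Igf2 by 9.08 and 10.7 times in the Hes1-derived and by 28.0 and 9.74 times in the Fgfr3-derived libraries. H19, the noncoding RNA expressed from the other parental allele of the same imprinted region on chromosome 7, lies 72622 bases from Igf2. H19 had 109 and 186 reads against 98 and 111 reads, and its log2 fold change of 0.60 ± 0.42 did not pass (edgeR adjusted p = 0.39). Of the 5723 exonic bases of Igf2, 3596 are shared with Gm49394, a gene model on the same strand with no row in the table, so the Igf2 count is uncertain. Igf2 overlaps the antisense gene Igf2os over 98 exonic bases, and the strand setting of the counting is not known. The row of that antisense gene had at most 3 reads in a library.

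Neither receptor passed the test. Igf1r stood at 26.8 and 27.6 CPM against 28.4 and 23.1 CPM, so the groups overlapped. Its log2 fold change was 0.08 ± 0.24 (edgeR adjusted p = 0.86). Igf2r stood at 25.2 and 25.6 CPM against 23.3 and 14.9 CPM. Its groups did not overlap, but Fgfr3-derived replicate 2 lay close to the Hes1-derived pair, and the log2 fold change of 0.41 ± 0.29 did not pass (edgeR adjusted p = 0.39). These errors leave room for differences of either sign for Igf1r, and the tests do not show that receptor levels are alike.

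The binding proteins held most of the reads of the axis. Reads on the 10 genes made up 0.709% of the library in Hes1-derived replicate 1 (95% exact binomial interval 0.705% to 0.712%), 0.459% in Hes1-derived replicate 3 (0.457% to 0.462%), 1.05% in Fgfr3-derived replicate 2 (1.04% to 1.05%) and 0.719% in Fgfr3-derived replicate 3 (0.716% to 0.722%). The intervals cover counting error only. Igfbp4 alone took between 58.8% and 71.3% of these reads and held ranks 7 and 13 among all genes by reads in the Hes1-derived and ranks 4 and 8 in the Fgfr3-derived libraries. 

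The levels of the 10 genes could be ordered per length. Per kilobase of exon, Igfbp4 came first in every library, at 583 to 1636 CPM per kb, above all values of the next gene. Igfbp7 (200.5 to 439 CPM per kb), Igfbp5 (140.4 to 287) and Igfbp3 (86.0 to 206) followed, and neighbours in this order overlapped across libraries. Igf1 (32.1 to 81.7 CPM per kb) ranked 5 in every library. Igf2 (2.91 to 4.25 CPM per kb), Igf2r (1.60 to 2.75), Igf1r (1.37 to 1.69) and Igfbp2 (0.56 to 3.79) were far below. Igf2 and Igf2r did not overlap, whereas Igf2r and Igf1r did. Igfbp2 ranked 7 and 6 in the Hes1-derived and 9 in both Fgfr3-derived libraries, and Igfbp6 was last in all 4.

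Igfbp2, which encodes a binding protein with a preference for IGF2 and an integrin-binding motif, was counted with 159 and 165 reads against 32 and 27 reads. This is 6.82 ± 0.24 CPM (SD, n = 2) against 1.15 ± 0.16 CPM, or 5.95-fold. The groups did not overlap, as for 61.9% of all tested genes. An SD from 2 libraries with so few reads is a poor measure of spread. Per 1000 eGFP reads, the Hes1-derived values lay further apart, at 1.05 and 2.08 reads. The log2 fold change was 2.57 ± 0.45 (SE; edgeR adjusted p = 0.021). Leaving out single libraries kept the size at 2.48 to 2.74, but the call ended without Hes1-derived replicate 3 (edgeR adjusted p = 0.057) and without Fgfr3-derived replicate 2 (edgeR adjusted p = 0.054). The level is low in both groups. In the same libraries 6 of 10 pan-leukocyte genes (median log2 fold change of the list 1.39), 10 of 10 B lymphocyte genes (2.33), 6 of 7 erythroid genes (1.69), 3 of 9 macrophage genes (1.01) and 1 of 8 endothelial genes (1.12) were higher. None of 7 neutrophil genes (median 0.98) and none of 6 chondrocyte genes (median −0.51) was called. Of the osteoblast genes 7 of 10 were lower (median −1.78). Their part in the Igfbp2 difference was not tested.

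Igfbp2 (chr1:72824503-72852474) and Igfbp5 (chr1:72857932-72874884) are neighbours on opposite strands, 5457 bases apart (GENCODE M21, GRCm38), yet their values differed in pattern. Igfbp5, a matrix-bound binding protein of bone, stood at 1201 and 843 CPM in the Hes1-derived and 1726 and 996 CPM in the Fgfr3-derived libraries. The groups overlapped, and the log2 fold change was −0.41 ± 0.36 (edgeR adjusted p = 0.49). It was 0.052 without Fgfr3-derived replicate 2. There were 172 and 127 Igfbp5 reads per Igfbp2 read in the Hes1-derived libraries and 1368 and 965 in the Fgfr3-derived libraries.

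Igfbp4 (chr11:99041244-99054392), an inhibitory binding protein that the protease PAPP-A cuts, had lower values in the Hes1-derived libraries without passing the main test. It stood at 4267 and 2572 CPM against 7224 and 5252 CPM, so the groups did not overlap. The means were 3419.9 ± 1198 CPM and 6238 ± 1394 CPM (SD, n = 2), a 1.82-fold difference. The log2 fold change was −0.87 ± 0.39 (SE; edgeR adjusted p = 0.19), and DESeq2 called it lower (−0.84, DESeq2 adjusted p = 0.034). The log2 fold change ranged from −1.28 without Hes1-derived replicate 1 to −0.55 without Hes1-derived replicate 3, and it was −0.61 without Fgfr3-derived replicate 2 and −1.04 without Fgfr3-derived replicate 3. With scaling to the stroma list it was −0.33 and to eGFP reads −0.11. The summed reticular stroma list stood at 20509.9 and 13519.6 CPM against 29945 and 20230.0 CPM, so that its groups overlapped. Its part in the Igfbp4 values was not tested.

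Igfbp3 (chr11:7206086-7213923), the main carrier of IGFs in serum, did not pass the test. It stood at 646 and 291 CPM in the Hes1-derived and 391 and 269 CPM in the Fgfr3-derived libraries. The Hes1-derived libraries differed 2.22-fold from each other and the groups overlapped. The log2 fold change was 0.50 ± 0.39 (edgeR adjusted p = 0.44), and it was −0.18 without Hes1-derived replicate 1. Within a library, however, there were 6.61 and 8.84 Igfbp4 reads per Igfbp3 read in the Hes1-derived and 18.5 and 19.5 in the Fgfr3-derived libraries. This ratio, which no scaling of libraries affects, separated the groups. It was chosen after its values were seen and was not tested. In CPM the groups did not overlap for 61.9% of all tested genes, and no such share was computed for ratios.

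Igfbp7, a matrix-associated member with low affinity for IGFs, stood at 506 and 242 CPM against 530.5 and 472 CPM. Hes1-derived replicate 1 lay between the Fgfr3-derived libraries, so the groups overlapped, and only Hes1-derived replicate 3 was low. The log2 fold change was −0.42 ± 0.35 (edgeR adjusted p = 0.48), and it was 0.016 without Hes1-derived replicate 3. Igfbp7 shares 85 exonic bases with Polr2b on the opposite strand. Igfbp6, which prefers IGF2, was counted with 34 and 1 reads against 9 and 9 reads. It did not pass the filter, and at this depth no difference was detectable.

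**Figure D2:**
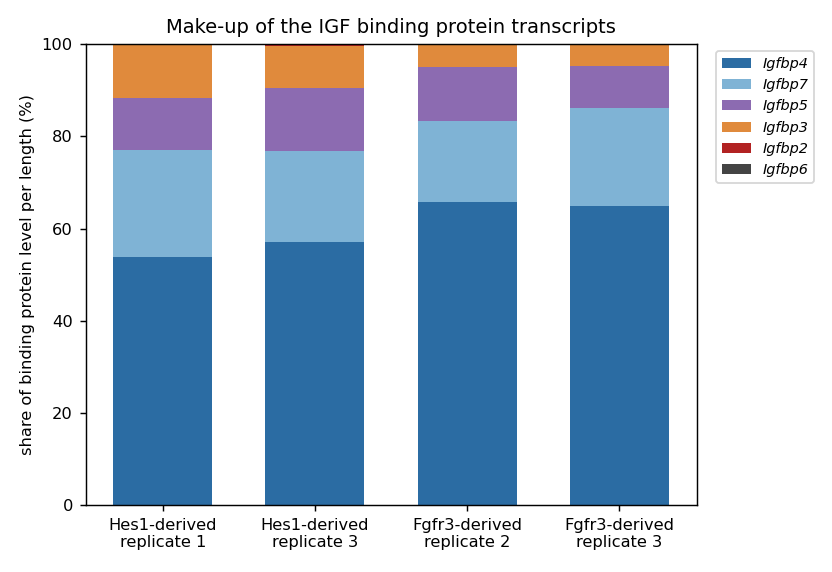
Share of each binding protein gene in the summed binding protein level per length (%), a bar per library. Igfbp4 takes 53.8% to 65.8%, and the Igfbp3 share is larger in the Hes1-derived bars.

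Per length, the make-up of the binding proteins differed between the groups in some parts. The Igfbp3 share was 11.5% and 9.11% in the Hes1-derived and 5.02% and 4.69% in the Fgfr3-derived libraries, and the Igfbp4 share 53.8% and 57.1% against 65.8% and 64.9%. Both separated the groups. The Igfbp2 share did too, at 0.21% and 0.35% against 0.027% and 0.031%. The shares of Igfbp5 (9.05% to 13.8%) and Igfbp7 (17.6% to 23.3%) overlapped. Shares sum to a fixed total, so these values are not independent of each other, and they are given with no test. The Igfbp3 and Igfbp4 shares rest on the same reads as the Igfbp4 to Igfbp3 ratio above. In CPM the groups did not overlap for 61.9% of all tested genes.

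Set against the GFP reporter of the sort, the picture of the abundant members changed. The eGFP row itself stood at 6669 and 3204 CPM in the Hes1-derived and 9264 and 6754 CPM in the Fgfr3-derived libraries. A low eGFP level raises every value per eGFP read in that library. Per 1000 eGFP reads, Igfbp4 had 640 and 803 reads in the Hes1-derived and 780 and 778 reads in the Fgfr3-derived libraries, so the groups overlapped. Igfbp3 had 96.9 and 90.8 reads against 42.2 and 39.9 reads, and here the groups lay apart. Igfbp2 had 1.05 and 2.08 reads against 0.14 and 0.15 reads. Igf2 (3.65 and 5.81 against 1.80 and 2.79 reads), Igf1r (4.02 and 8.60 against 3.06 and 3.41 reads), Igf2r (3.79 and 7.99 against 2.5 and 2.2 reads) and Igfbp7 (75.9 and 75.6 against 57.3 and 69.8 reads) were also higher in both Hes1-derived libraries. On this scale 6 of the 9 tested members thus lay apart in this direction, as did 46.0% of all tested genes, and in either direction 54.0% of all tested genes lay apart. Igf1 overlapped, at 57.3 and 108 reads against 87.3 and 47.0 reads, and so did Igfbp5. Per 1000 Cxcl12 reads, Igfbp4 had 605 and 615 reads against 740 and 747 reads, so the groups did not overlap. Igf2, Igf1r, Igf2r, Igfbp2 and Igfbp3 did not overlap either, with higher values in the Hes1-derived libraries. The share of all tested genes without overlap was not computed on this scale. As eGFP is read from an allele of Cxcl12, the 2 references are not independent. With all genes scaled to eGFP the median log2 fold change over all tested genes was 0.83, and with scaling to the stroma list 0.55. On these 2 scales the log2 fold change of Igfbp2 was 3.42 (edgeR adjusted p = 0.019) and 3.16 (edgeR adjusted p = 0.0015), and that of Igfbp3 was 1.19 (edgeR adjusted p = 0.39) and 1.01 (edgeR adjusted p = 0.29).

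**Figure D3:**
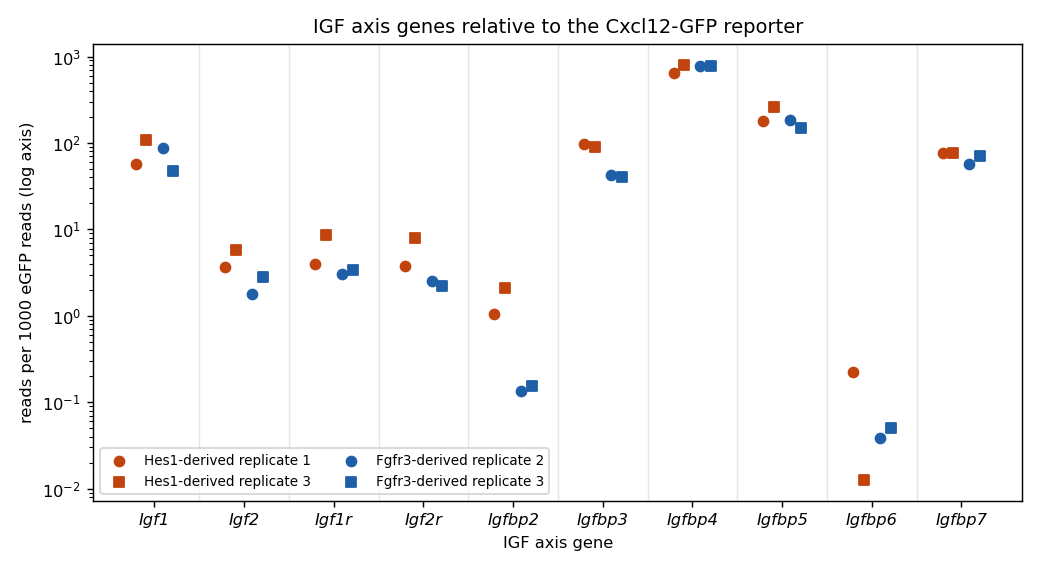
Reads of each IGF axis gene per 1000 eGFP reads (log axis), a point per library, coloured by group. Igf2, Igf1r, Igf2r, Igfbp2, Igfbp3 and Igfbp7 are higher in both Hes1-derived libraries, at 90.8 to 96.9 against 39.9 to 42.2 for Igfbp3, whereas Igf1, Igfbp4, Igfbp5 and Igfbp6 overlap.

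Among 9774 genes with a mean of at least 10 CPM, the genes whose log2 level followed Igfbp4 most closely over the 4 libraries were Mmp19, a metalloproteinase, Trim2, a ubiquitin ligase, and Tcf7l1, a transcription factor of the WNT pathway. Their root mean square differences from Igfbp4, after centring each gene, were 0.015, 0.032 and 0.036 on the log2 scale. Mmp19, for instance, stood at 14.1 and 8.42 CPM against 23.4 and 16.9 CPM. With 4 libraries and so many genes, such closeness is a description only.

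Around the 10 members, several adaptors that act on the receptors inside the cell were lower in the Hes1-derived libraries. Of 39 other genes of the pathway, 37 had a row and 35 were tested. In the Hes1-derived libraries 6 were lower and 1 was higher, against 6.56% and 5.24% of all tested genes, and the median log2 fold change was −0.36. The groups did not overlap for 27 of the 35, against 61.9% of all tested genes. DESeq2 called 13 lower and 2 higher, and it called 20.8% of all tested genes in either direction. The number of lower calls was 10 without Hes1-derived replicate 1 and 1, Grb14, without Hes1-derived replicate 3. None was called lower with scaling to the stroma list or to eGFP reads. Over all tested genes, these scalings left 143 and 19 lower calls, against 940 in the main fit. In the same libraries 7 of 10 osteoblast genes were lower and 6 of 10 pan-leukocyte genes were higher, and their part in the differences of the pathway genes was not tested. The list was chosen with earlier results of these data known.

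**Figure D4:**
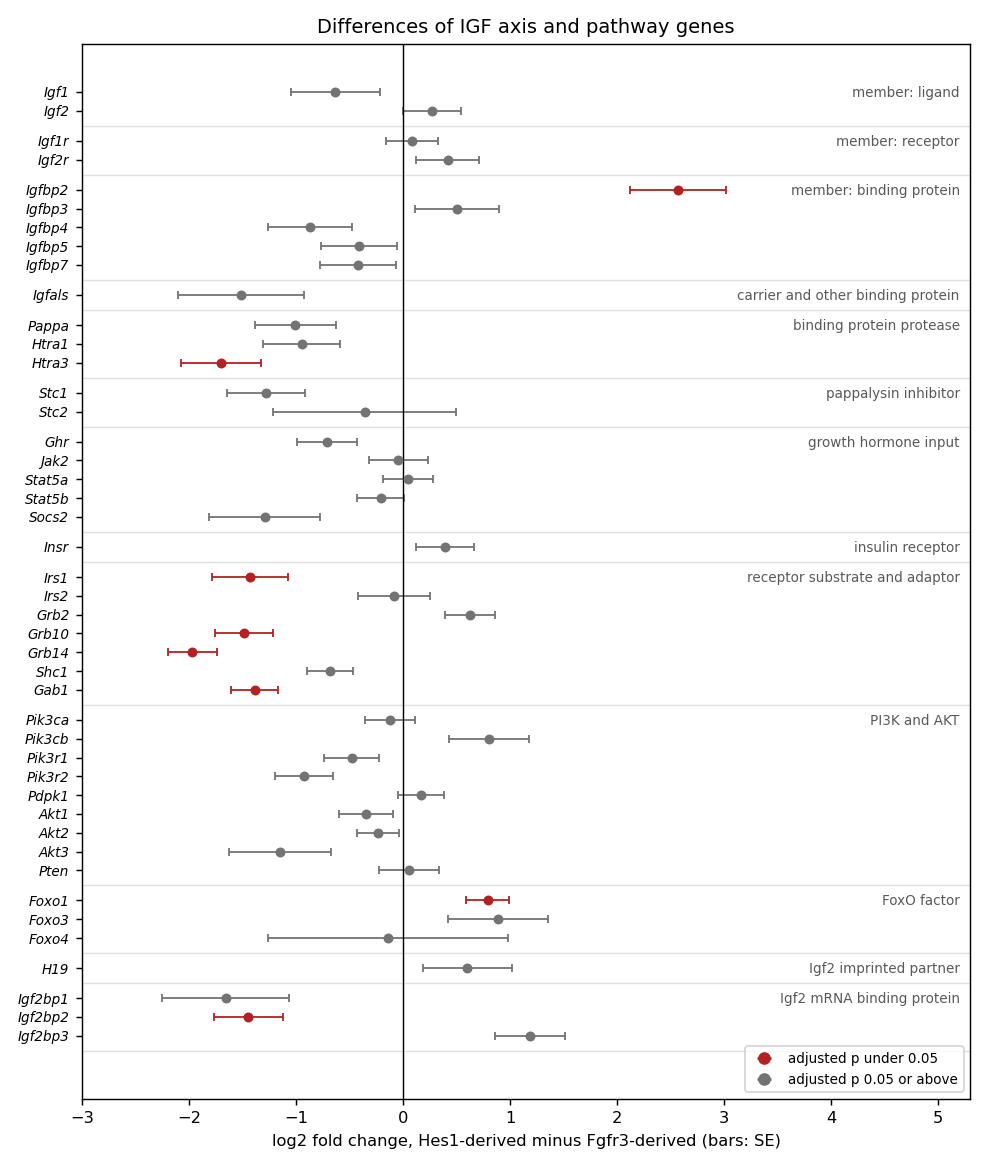
Log2 fold change (Hes1-derived minus Fgfr3-derived) with SE for the 9 tested members and the 35 tested pathway genes, grouped by role, with edgeR adjusted p under 0.05 in red. Red points lie on the left for Htra3, Irs1, Grb10, Grb14, Gab1 and Igf2bp2 and on the right for Igfbp2 and Foxo1.

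Receptor substrates and adaptors held 4 of the 6 lower genes. Grb14, an adaptor that binds and inhibits the insulin receptor, stood at 30.4 and 25.3 CPM in the Hes1-derived and 121 and 96.9 CPM in the Fgfr3-derived libraries (log2 fold change −1.97 ± 0.23 (SE), edgeR adjusted p = 0.014). Its groups lay far apart and the call held without each library in turn. Grb10, an imprinted inhibitory adaptor of the insulin and IGF1 receptors, had 93.6 and 92.6 CPM against 321 and 201 CPM, with no overlap (−1.49 ± 0.27, edgeR adjusted p = 0.022). Gab1, a docking protein that recruits PI3 kinase, had 54.7 and 62.2 CPM against 172 and 134 CPM (−1.39 ± 0.22, edgeR adjusted p = 0.019). Without Hes1-derived replicate 3 the edgeR adjusted p was 0.080 for Grb10 and 0.0502 for Gab1.

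Irs1, a docking protein of the insulin and IGF1 receptors, had 48.3 and 31.7 CPM against 141 and 74.7 CPM (−1.43 ± 0.35, edgeR adjusted p = 0.044). The groups did not overlap, but the call ended without Hes1-derived replicate 3 (edgeR adjusted p = 0.19) and without Fgfr3-derived replicate 2 (−0.89, edgeR adjusted p = 0.14). Opposite-strand gene models with no row share 2822 exonic bases with Irs1, 674 with Foxo1 and 266 with Gab1. Irs2, the related docking protein, overlapped between the groups, at 87.6 and 161 CPM against 159 and 104 CPM. Of the other substrates and adaptors, Shc1 (−0.68 ± 0.21, edgeR adjusted p = 0.080) and Grb2 (0.62 ± 0.23, edgeR adjusted p = 0.13) did not pass in edgeR, while DESeq2 called Shc1 lower (DESeq2 adjusted p = 0.033). There were 3.49 and 3.36 Grb10 reads per Igf1r read in the Hes1-derived and 11.3 and 8.71 in the Fgfr3-derived libraries.

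Of the proteases that cut binding proteins, Htra3, a secreted serine protease, passed. It stood at 89.5 and 54.4 CPM against 161 and 307 CPM (−1.70 ± 0.37, edgeR adjusted p = 0.032). The groups did not overlap, though the Fgfr3-derived libraries were uneven, and the call ended without Hes1-derived replicate 3 (edgeR adjusted p = 0.14) and Fgfr3-derived replicate 3 (−1.12, edgeR adjusted p = 0.0504). Pappa, which encodes the IGFBP4 protease PAPP-A, had 76.0 and 52.1 CPM against 176 and 81.8 CPM (−1.01 ± 0.38, edgeR adjusted p = 0.13). Htra1, a related serine protease, had 346 and 163 CPM against 472 and 511 CPM (−0.95 ± 0.36, edgeR adjusted p = 0.13). There were 56.2 and 49.4 Igfbp4 reads per Pappa read in the Hes1-derived and 41.1 and 64.2 in the Fgfr3-derived libraries, so that this ratio overlapped. Stc1, an inhibitor of PAPP-A, stood at 8.93 and 9.27 CPM against 28.9 and 15.4 CPM (−1.28 ± 0.36, edgeR adjusted p = 0.064). DESeq2 called all 3 tested proteases and Stc1 lower, with DESeq2 adjusted p of 0.043 for Pappa, 0.037 for Htra1 and 0.012 for Stc1. It called 20.8% of all tested genes in either direction.

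Among the proteins that bind Igf2 mRNA, Igf2bp2 was lower. It had 12.1 and 8.66 CPM in the Hes1-derived and 33.9 and 22.6 CPM in the Fgfr3-derived libraries (−1.45 ± 0.32, edgeR adjusted p = 0.034), and the call ended without Hes1-derived replicate 3 and Fgfr3-derived replicate 2 (edgeR adjusted p = 0.15 and 0.14). Igf2bp3, its fetal paralogue, had 22.5 and 38.0 CPM against 14.8 and 11.8 CPM (1.19 ± 0.33, edgeR adjusted p = 0.059). It passed with DESeq2 (1.22, DESeq2 adjusted p = 0.0076), with scaling to the stroma list (1.86, edgeR adjusted p = 0.021) and without Hes1-derived replicate 1 (1.51, edgeR adjusted p = 0.034). Igf2bp3 shares 1529 exonic bases with Malsu1 on the opposite strand, so its reads are uncertain. Per read of Igf2bp3 there were 0.54 and 0.23 Igf2bp2 reads in the Hes1-derived and 2.28 and 1.92 in the Fgfr3-derived libraries.

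Foxo1, a transcription factor that insulin and IGF signalling keeps out of the nucleus and that B cell development also needs, was the only higher gene of the list. It stood at 139 and 125 CPM against 79.9 and 73.1 CPM (0.79 ± 0.20, edgeR adjusted p = 0.047), and the groups did not overlap. The call ended when any library was left out, with edgeR adjusted p from 0.073 to 0.17. It also ended with scaling to the stroma list (1.35, edgeR adjusted p = 0.13) and to eGFP reads (1.62, edgeR adjusted p = 0.23). All 10 B lymphocyte genes were higher in the same libraries (median log2 fold change 2.33), and their part in the Foxo1 difference was not tested.

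In edgeR no gene passed in the other roles. Of all 14330 tested genes, 4307 had an edgeR unadjusted p under 0.05 in either direction, and DESeq2 called 20.8%. Of 9 PI3 kinase and AKT genes edgeR called none, with 2 lower at an unadjusted p under 0.05, and DESeq2 called 1 lower, Pik3r2 (−0.93 ± 0.27 and adjusted p = 0.069 in edgeR). The most abundant, the kinase Akt1, stood at 417 and 360.0 CPM against 422 and 569 CPM. Of 5 genes of growth hormone input, which drives Igf1 in liver, none passed in edgeR, with 2 lower at an unadjusted p under 0.05. DESeq2 called 1 of them lower, Socs2, an inhibitor of growth hormone signalling (−1.29 ± 0.52 and adjusted p = 0.14 in edgeR). Ghr, the growth hormone receptor and the most abundant of these genes, had 147 and 115 CPM against 264 and 165 CPM (−0.71 ± 0.28, edgeR adjusted p = 0.14). The insulin receptor gene Insr had 16.9 and 18.4 CPM against 14.3 and 12.7 CPM (0.39 ± 0.27, edgeR adjusted p = 0.38). Igfals, which encodes the acid-labile subunit that joins IGFBP3 or IGFBP5 in serum complexes, had 6.77 and 2.18 CPM against 16.7 and 8.87 CPM (−1.52 ± 0.59, edgeR adjusted p = 0.13), and DESeq2 called it lower (DESeq2 adjusted p = 0.043).

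**Figure D5:**
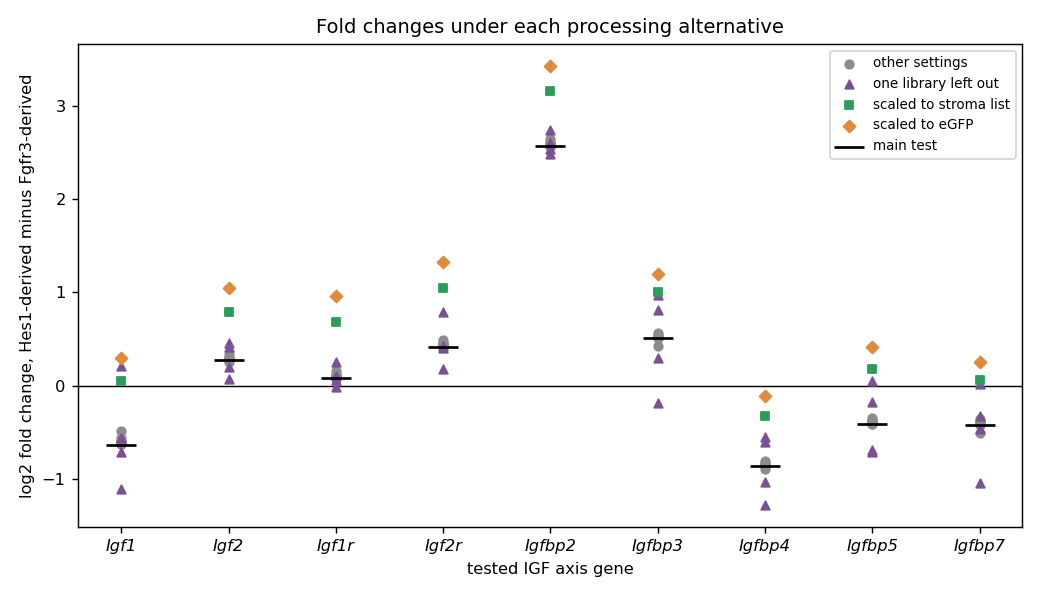
Log2 fold change of each of the 9 tested members in the main test (black line) and under the processing alternatives, with points for single libraries left out, scaling to stroma or eGFP reads, and other settings. Igfbp2 stays between 2.48 and 3.42, whereas Igf1, Igf1r, Igfbp3, Igfbp5 and Igfbp7 have values on both sides of 0.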

How the data were processed

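Per the submitters' processing notes, the tools were HTSeq, DESeq2, Cuffdiff, Cufflinks, Bowtie2 2.2.1, TopHat2 2.0.13 and FastQC and the build was mm10, with no roles given. The annotation and strand setting are not given in the sources used here. Per the series description, GFP+tdTomato+ cells were sorted and amplified with a SMARTer kit. The labels' extraction text names a sort for tdTomato and single-cell loading instead, and each library is 1 column. The deposited counts, whole reads per gene symbol made by the authors, were tested as deposited. Normalised copies of these counts were not used.

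edgeR 4.0.16 (R 4.3.3) was run on 14330 genes passing its filter (minimum count 10) with TMM factors and robust quasi-likelihood dispersions. The threshold was an adjusted p of 0.05 (Benjamini-Hochberg). CPM values are TMM-scaled, and SE is the absolute log2 fold change over the square root of F. The biological coefficient of variation was 27.8%. Levels per length use union exons of GENCODE M21. Alternatives were RLE factors, library totals, stroma and eGFP scaling, both other filters, DESeq2 1.42.0, limma-voom (limma 3.58.1), an adjusted p of 0.10, removal of blood-cell markers and leaving out each library. On simulated data with 14138 tested genes, the test recovered 12 of 100 genes with a 2-fold and 92 of 100 with a 4-fold change, with 5 false calls. The simulation gave all genes the same dispersion, changed only well-counted genes and modelled no mixture of cell types. Its counts may therefore not hold for these libraries. All 10 members are named, with every pathway gene that passed or, in a role with none, the most abundant; others were named after their values were seen. Members and lists were chosen with earlier results of these data known.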

Additional observations from a re-analysis of the deposited data

How the results depend on the processing

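Igfbp2 kept its direction in all 13 alternatives fitted, and of the called pathway genes none changed direction. DESeq2 called 1 member lower, 13 pathway genes lower and 2 higher, and 1429 genes higher and 1557 lower over the whole table, against 751 and 940 in edgeR. At an adjusted p of 0.10, 2 pathway genes were higher, and 1411 of all genes were higher and 1664 lower. Scaling to the stroma list left 0 pathway genes and 143 of all genes lower, so that 87.4% of calls were higher against 44.4%. Scaling to eGFP left 0 pathway genes lower and 0 higher, and 324 of all genes higher and 19 lower (94.5% higher). Under stroma and eGFP scaling Igf1 turned to 0.047 and 0.30, Igfbp5 to 0.18 and 0.41 and Igfbp7 to 0.055 and 0.25 (log2), none past the threshold, and Igfbp4 was −0.33 and −0.11 against −0.87. Both scalings apply the same factor to every gene of a library, so the shift was not particular to the members. The median log2 fold change over all tested genes was 0.55 and 0.83 with these scalings, against −0.02 in the main fit. Leaving out each library gave 0 to 1 members higher and 0 to 1 lower, 0 to 1 pathway genes higher and 1 to 10 lower, and 183 to 1225 genes higher and 181 to 998 lower. In those fits Igf1 ranged from −1.11 to 0.21, Igf1r from −0.014 to 0.26, Igfbp3 from −0.18 to 0.97, Igfbp4 from −1.28 to −0.55, Igfbp5 from −0.71 to 0.052 and Igfbp7 from −1.05 to 0.016. A group then holds 1 library, which is assumed to vary like the others. No paired analysis was possible because the labels link no Hes1-derived library to an Fgfr3-derived one. Igfbp6, with 1 to 34 reads a library, was too low to test.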
